A study of Mus musculus with 18 samples.

Results

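The 10 antioxidant defence genes described here, Nfe2l2, Hmox1, Nqo1, Gclc, Gsr, Txnrd1, Srxn1, Sod2, Sod3 and Gpx3, were taken by gene symbol from the 25124 genes counted in each of 3 adipose depots, and all 10 were found once in every table. Poly(A) RNA was sequenced from the inguinal (iWAT) and epididymal (eWAT) white fat and the brown fat (BAT) of wild-type (WT) and caspase-6 knockout (C6KO) mice, as 18 libraries, 3 for each genotype in each depot. The C6KO mice lack caspase-6, an executioner protease of cell death, in the whole body and not in adipocytes alone. Both genotypes were male, on a C57BL/6J background, came from crosses of heterozygous parents and were fed a high fat diet (HFD, 60% fat) for 12 weeks. The study started diets at 10 to 14 weeks of age. No chow-fed group was analysed here, so every value below was measured under HFD.

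NRF2, the protein made from Nfe2l2, is a transcription factor that KEAP1 holds at a low level until oxidants or electrophiles modify KEAP1. It then pairs with small MAF proteins on antioxidant response elements and raises enzymes that make and recycle glutathione, reduce thioredoxin and break down haem and quinones. Superoxide dismutases turn superoxide into hydrogen peroxide, in the mitochondria (SOD2) or outside the cell (SOD3), and glutathione and thioredoxin enzymes then remove peroxides. NRF2 itself is regulated largely as a protein, so the mRNA level of Nfe2l2 and NRF2 activity are separate quantities, and only mRNA was measured.

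The core of the antioxidant response element, TGACNNNGC read on both strands, was searched in RefSeq promoters (build GRCm38.p6, 250 bases before to 50 after a start site), since NRF2 control is what joins most of these genes. Promoters were matched for 6 of the 10 genes, Nfe2l2, Nqo1, Txnrd1 with 3 start sites, Srxn1, Sod2 and Gpx3. The core was in 3 of their 8 promoters and in 12.4% of all 32851 promoters. The promoters of Nqo1, Sod2 and Gpx3 held no match. The 3 matches are shown 5′ to 3′ along the gene with 10 bases on either side and the core in capitals:
Nfe2l2, chr2:75704885-75704913, minus strand, 240 bases before the start: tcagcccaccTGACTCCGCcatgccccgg
Txnrd1, chr10:82859104-82859132, plus strand, from 92 bases before the start: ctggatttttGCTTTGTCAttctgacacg
Srxn1, chr2:152105542-152105570, plus strand, from 28 bases after the start: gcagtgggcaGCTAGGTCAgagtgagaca
The Nfe2l2 match reads forward along the gene, and those of Txnrd1 and Srxn1 read in reverse. The Txnrd1 match lies before the start of the transcript that was counted. The AP-1 letters TGANTCA, which some response elements contain, were found in 1 of the 8 promoters, that of Srxn1, and in 7.81% of all promoters. The GC box GGGCGG was in 6 of the 8 promoters and in 35.7% of all promoters. The CCAAT box was in 3 of the 8 and in 37.4% of all promoters. The TATA box TATAAA was in 1 of the 8 (13.6% of all) and the E-box CACGTG in 0 of the 8 (7.15% of all). These are matches of letters in a short window and no binding was measured.

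The libraries of iWAT held 16506034 to 19043523 counts, those of eWAT 16717201 to 19139694 and those of BAT 7803108 to 12428683. Casp6, the targeted gene, had 289 to 422 counts in WT white depot libraries and 74 to 141 in C6KO ones. In BAT it had 127 to 145 counts in WT and 26 to 71 in C6KO, so C6KO was below WT without overlap in all 3 depots although reads on the gene remained. Adipocyte markers (6 genes) were expressed in all libraries, brown adipocyte markers (6 genes, Ucp1 among them) summed to at least 6000 CPM (TMM-normalized counts scaled to library size) in every BAT library and to at most 33.7 CPM in every white depot library, and epididymis markers were at 0 throughout. Among the libraries, 2 are described here because several results below turned on them. BAT WT 2 carried 30458 CPM of 6 skeletal muscle markers, against 39.0 to 6331 CPM in the other 5 BAT libraries, and the lowest summed adipocyte markers of BAT (14950 CPM). iWAT C6KO 3 carried 1266 CPM of 10 macrophage markers, against 439 and 440 CPM in the other C6KO libraries and 1694 to 1884 CPM in WT, and it also had the highest progenitor and fibroblast markers of the iWAT C6KO libraries (3119 CPM, against 1682 and 2153). Values without BAT WT 2 or iWAT C6KO 3 are given beside several of the results below. Other libraries also differed within their group. The T and B lymphocyte markers of eWAT C6KO 3 were at 148 CPM, against 11.1 and 8.77 CPM in eWAT C6KO 1 and 2. By the chi-square of counts per degree of freedom, all pairs of iWAT C6KO libraries were similarly unlike (61.5 to 62.7). By that measure iWAT C6KO 3 was no further from the others than they were from each other. In such bulk tissue RNA, fewer cells of a type and less RNA per cell cannot be told apart.

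Levels of the 10 genes differed widely, and they can be set side by side only per kilobase (kb) of the counted transcript. In WT iWAT, Sod3 had the highest mean at 634 ± 11.1 CPM per kb (SD, n = 3), followed by Gpx3 at 152 ± 35.8 and Hmox1 at 90.0 ± 7.95. Sod2 (45.4 ± 1.64) and Nfe2l2 (39.3 ± 0.35) came next, then Txnrd1 (26.7 ± 1.01), Gsr (23.8 ± 2.60) and Srxn1 (18.5 ± 0.84), all in CPM per kb. Gclc at 9.20 ± 1.02 and Nqo1 at 4.20 ± 0.64 CPM per kb were lowest. Of the neighbours in that order, only Txnrd1 and Gsr had library values that overlapped. In WT BAT the order was led by Gpx3 at 1462 ± 323 CPM per kb, with Sod2 (254 ± 67.6) and Sod3 (247 ± 23.4) next and not apart beyond their SDs. In WT eWAT, Gpx3 (271 ± 16.1 CPM per kb) and Sod3 (262 ± 25.1) led and were likewise within their SDs of each other. NQO1 is a quinone reductase much used as a marker of NRF2 activity, and its mRNA was the least abundant of the 10 in the WT libraries of every depot by the mean per kb.

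**Figure D1:**
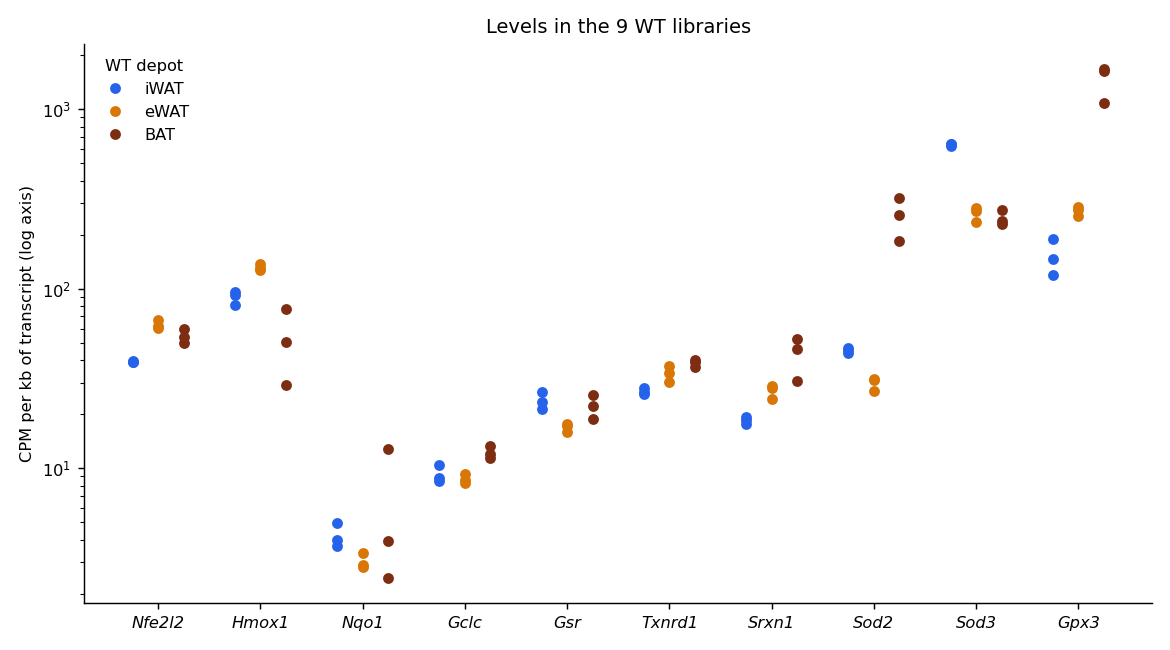
Levels of the 10 genes in the 9 WT libraries, as CPM per kb of the counted transcript on a log axis, with 1 point per library and colours for the depots. Gpx3 and Sod2 sit far higher in BAT than in both white depots, Sod3 is highest in iWAT, and Nqo1 is lowest in general, with 1 BAT library (WT 2) well above the other BAT points.

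The depots of WT mice were compared to ask where each gene is used under HFD. A gene was called when its Benjamini-Hochberg adjusted p in edgeR's quasi-likelihood test was below 0.05 and its fold change was at least 1.5. Between WT eWAT and iWAT, 4 of the 10 genes were called, where 28.3% of all genes tested were. Between WT BAT and iWAT, 5 were called against 40.2% of all genes, and between WT BAT and eWAT, 4 were called against 50.2%. The shares of members called were thus of the order of the background.

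Gpx3 encodes the selenium-dependent glutathione peroxidase secreted into plasma. WT iWAT libraries had 223, 180 and 287 CPM, those of eWAT 431, 383 and 416 CPM, and those of BAT 2469, 1651 and 2526 CPM, so no depots overlapped. BAT exceeded iWAT 9.67-fold (edgeR adjusted p = 1.63e-06) and eWAT 5.43-fold (adjusted p = 3.37e-06), and eWAT exceeded iWAT 1.78-fold (adjusted p = 0.00897). Each of these calls was made in all 6 fits that left out 1 library. Sod2, the mitochondrial manganese enzyme, was at 179, 166 and 175 CPM in WT iWAT, 119, 118 and 103 CPM in eWAT, and 1221, 705 and 987 CPM in BAT. BAT exceeded iWAT 5.63-fold (adjusted p = 3.22e-06) and eWAT 8.60-fold (adjusted p = 3.17e-07), and both calls held in all 6 fits without 1 library. The lowest of the 3 BAT values for Gpx3 and for Sod2 was in BAT WT 2, the library with muscle transcripts, and without it the BAT to eWAT fold of Sod2 was 9.78. The lower Sod2 level of eWAT than of iWAT (1.53-fold, adjusted p = 0.0224) had no overlap but was called in 0 of the 6 fits without 1 library, with adjusted p-values from 0.05 to 0.0924.

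Sod3, the extracellular copper and zinc enzyme, was highest in iWAT. It was at 1307, 1308 and 1268 CPM in WT iWAT, 550, 478 and 577 CPM in eWAT, and 487, 466 and 557 CPM in BAT. iWAT stood above eWAT 2.42-fold (adjusted p = 5.01e-05) and above BAT 2.56-fold (adjusted p = 1.30e-05), called in every fit without 1 library, while eWAT and BAT overlapped (adjusted p = 0.598).

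Nfe2l2 was lowest in WT iWAT, at 97.5, 97.4 and 99.0 CPM, against 166, 154 and 149 CPM in eWAT and 148, 124 and 135 CPM in BAT. The 1.60-fold higher level of eWAT over iWAT was called (adjusted p = 0.000805) with and without each library, and the 1.39-fold higher level of BAT passed the test (adjusted p = 0.00412) but not the fold minimum. Srxn1, which encodes the sulfiredoxin that repairs overoxidised peroxiredoxins, was at 54.3, 49.6 and 51.8 CPM in WT iWAT, 78.5, 67.9 and 80.9 CPM in eWAT and 129, 86.1 and 147 CPM in BAT. BAT was above iWAT 2.33-fold (adjusted p = 0.000222) and above eWAT 1.60-fold (adjusted p = 0.00615), and the second call was lost without BAT WT 3 (1.43-fold, adjusted p = 0.0268). Hmox1, the inducible haem oxygenase, ran the other way from Srxn1 in BAT, at 79.3, 45.7 and 121 CPM against 127, 151 and 145 CPM in iWAT and 205, 215 and 200 CPM in eWAT. BAT was 2.51-fold below eWAT (adjusted p = 0.00227), called in all 6 fits without 1 library. BAT was 1.72-fold below iWAT (adjusted p = 0.0391), a call made in 1 of the 6 fits, that without BAT WT 3 (a ratio of 0.444, adjusted p = 0.00183). Without BAT WT 2 the ratio was 0.714, under the fold minimum (adjusted p = 0.0230), and in the other 4 fits the adjusted p was 0.0635 to 0.120. Gclc, Gsr, Txnrd1 and Nqo1 were called in no pair of WT depots with all libraries. For Nqo1 the BAT to eWAT fold of 2.16 (adjusted p = 0.0781) turned on BAT WT 2. It was 1.08 without that library, and it was called without BAT WT 1 (2.79-fold, adjusted p = 0.0113) or BAT WT 3 (2.59-fold, adjusted p = 0.0488). Between BAT and iWAT the Nqo1 fold was 1.55 with all libraries (adjusted p = 0.311) and 0.771 without BAT WT 2. Macrophage markers moved in the same order as Hmox1 over the depots (5618 to 6558 CPM in WT eWAT, 1694 to 1884 in iWAT and 664 to 854 in BAT). Other marker sums followed that order too. Progenitor and fibroblast markers were at 5961 to 7748, 4551 to 4673 and 1096 to 1695 CPM, and neutrophil markers at 20.6 to 34.9, 14.5 to 15.5 and 4.21 to 9.49 CPM. The part of any of these markers in the Hmox1 levels was not tested.

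The comparison of C6KO with WT asks how these genes differ between the genotypes under HFD, and its outcome differed in size and sign from gene to gene. The study reported lower body weight, fat mass and depot weights in C6KO than in WT mice on HFD. Their part in the results below was not tested. Of the 10 genes, edgeR called 1 in eWAT (Sod3, higher), beside 0.746% of all genes tested. It called 0 of the 10 in iWAT, beside 0.0275%, and 0 in BAT, beside 1.24%. At an unadjusted p below 0.05, 4 genes stood out in iWAT (Gclc and Gpx3 higher, Hmox1 and Srxn1 lower; 16.5% of all genes), 2 in eWAT (Gsr and Sod3, both higher; 17.6%) and 1 in BAT (Gpx3, higher; 13.2%). DESeq2 at the same thresholds called 1 gene per depot, Hmox1 lower in iWAT, Sod3 higher in eWAT and Gpx3 higher in BAT, against 4.57%, 4.02% and 3.70% of all genes. Over the 10 genes the median log2 fold change was 0.09 (iWAT), 0.11 (eWAT) and -0.06 (BAT), beside 0.03, -0.01 and -0.03 over all genes tested. Genotypes did not overlap for 3 of the 10 genes in each white depot, beside 23.1% (iWAT) and 23.2% (eWAT) of all genes, and for 1 gene in BAT, beside 19.8%. Casp6, the targeted gene, was itself called by edgeR only in eWAT (3.61-fold lower, adjusted p = 0.0132). In iWAT (2.85-fold lower, adjusted p = 0.0751) and BAT (2.83-fold lower, adjusted p = 0.0671) edgeR did not call it, while DESeq2 did. A missing edgeR call in iWAT or BAT is thus not a sign of no change.

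**Figure D2:**
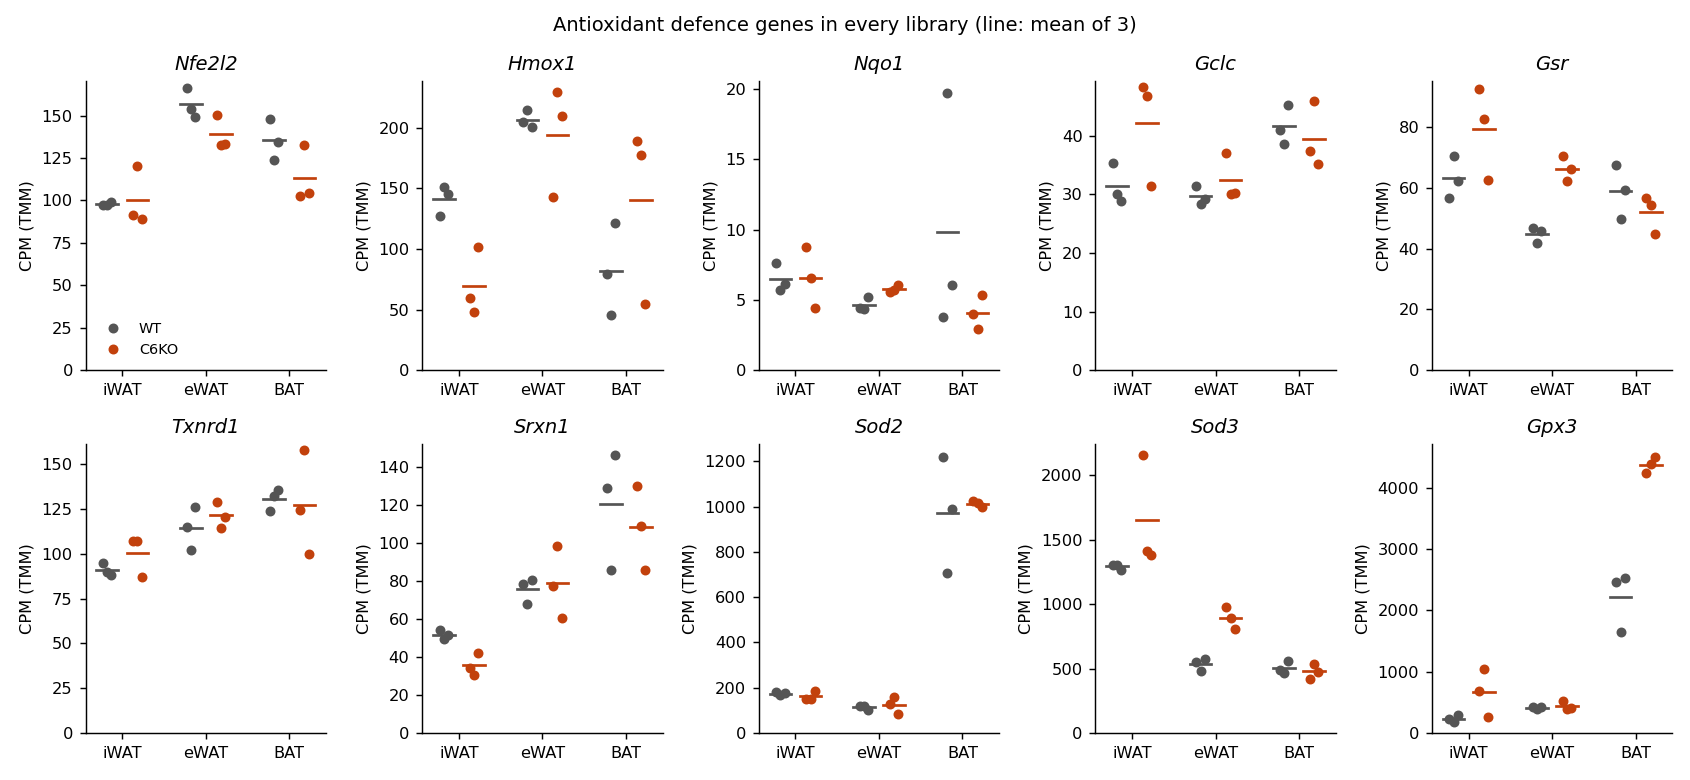
CPM of each gene in all 18 libraries, with depots on the horizontal axis, grey points for WT, orange points for C6KO and a line at the mean of 3 libraries. Sod3 in eWAT, Gpx3 in BAT and Hmox1 in iWAT show genotypes without overlap, while Gpx3 in iWAT has 2 C6KO libraries high and the third among the WT values.

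Nfe2l2 itself did not pass the test in any depot. In iWAT the C6KO libraries were at 91.3, 120 and 89.1 CPM and WT lay inside that range (log2 fold change 0.04 ± 0.14 SE, adjusted p = 0.914). In eWAT C6KO was at 150, 133 and 134 CPM (-0.17 ± 0.10, adjusted p = 0.443), and in BAT at 103, 132 and 104 CPM (-0.25 ± 0.16, adjusted p = 0.562). Both groups overlapped in every depot. Keap1, whose protein marks NRF2 for degradation, was not called either, with log2 fold changes of -0.04, -0.06 and 0.16 in iWAT, eWAT and BAT.

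Hmox1 degrades haem to biliverdin, iron and carbon monoxide, and in adipose tissue it is expressed in macrophages among other cells. In iWAT it was at 127, 151 and 145 CPM in WT and 59.8, 47.9 and 101 CPM in C6KO, and the C6KO libraries all lay under the WT ones. The log2 fold change was -1.02 ± 0.26 (SE), a 2.02-fold lower level, with an adjusted p of 0.165 in edgeR and 0.00449 in DESeq2. Its highest C6KO value was in iWAT C6KO 3, and without that library Hmox1 was called lower (log2 fold change -1.40 ± 0.15, edgeR adjusted p = 0.00085). The share of all genes called in fits without 1 library was not computed. Such calls, here and below, thus cannot be read against a background. Macrophage markers moved with Hmox1. Of the 10, 9 did not overlap between the genotypes and were lower in C6KO, 0 were called by edgeR and 4 by DESeq2. Other marker sums also differed without overlap in iWAT. Progenitor and fibroblast markers were lower in C6KO (1682 to 3119 CPM, against 4551 to 4673 in WT), as were erythroid markers (32.7 to 118 CPM, against 134 to 335), and adipocyte markers were higher (31433 to 32610 CPM, against 23705 to 26794). The part of these markers in the result, and in those of the other genes in iWAT, was not tested.

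In eWAT and BAT the same gene gave no call. Hmox1 in eWAT was at 205, 215 and 200 CPM in WT and 143, 229 and 209 CPM in C6KO (log2 fold change -0.09 ± 0.16, adjusted p = 0.838). The summed macrophage markers there were lower in C6KO without overlap (3801 to 4740 CPM, against 5618 to 6558 CPM in WT). In BAT Hmox1 was at 79.3, 45.7 and 121 CPM in WT and 189, 177 and 54.7 CPM in C6KO (0.80 ± 0.60, adjusted p = 0.653). Without BAT WT 2 the estimate was 0.53 ± 0.65. Macrophage markers in BAT were at 261 to 377 CPM in C6KO and 664 to 854 CPM in WT, with 5 of the 10 called lower. The part of macrophage markers in the Hmox1 values of eWAT and BAT was not tested. The difference of the C6KO effect on Hmox1 between BAT and iWAT was 1.80 ± 0.58 on the log2 scale, with an unadjusted p of 0.00786 and an adjusted p of 0.315 in edgeR's fit across all genes. It was 1.505 without BAT WT 2 and 2.17 without iWAT C6KO 3, called in neither case.

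**Figure D3:**
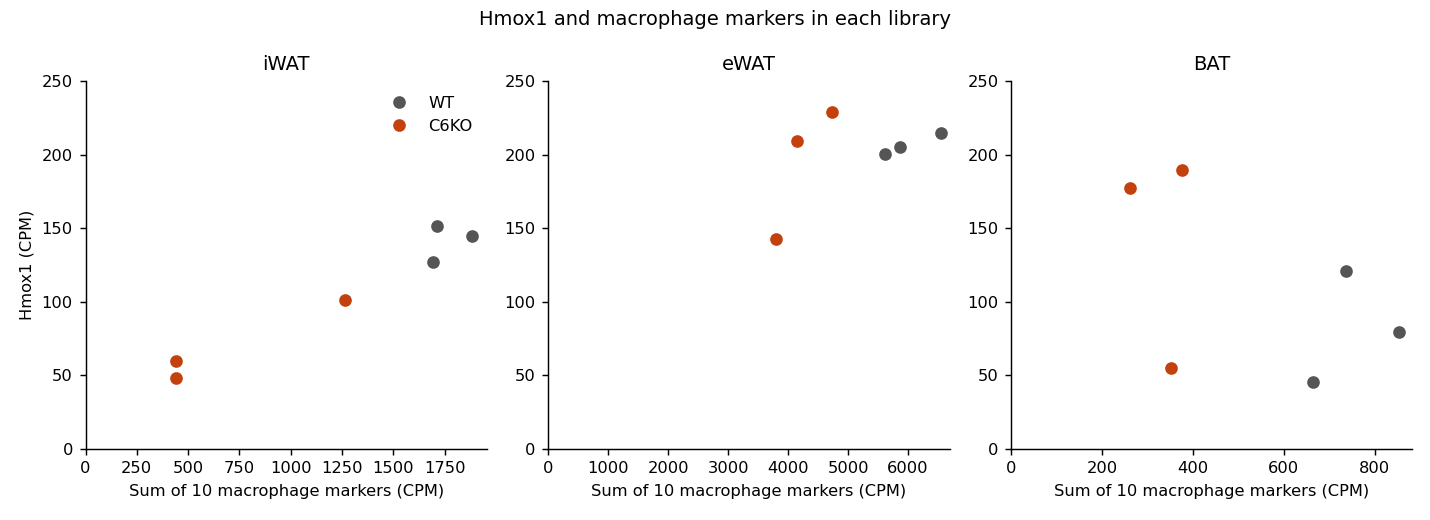
Hmox1 (CPM, vertical) against the sum of 10 macrophage markers (CPM, horizontal) in each library, 1 panel per depot, grey for WT and orange for C6KO. In iWAT the library C6KO 3 lies between the other C6KO libraries and WT on both axes, while in BAT the C6KO libraries have the lower marker sums and Hmox1 values within and above the WT range.

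Srxn1 was also lower in each iWAT C6KO library than in WT. It was at 54.3, 49.6 and 51.8 CPM in WT and 34.0, 30.7 and 42.3 CPM in C6KO, without overlap (log2 fold change -0.54 ± 0.14, edgeR adjusted p = 0.165, DESeq2 adjusted p = 0.0414 at a fold below the minimum). Without iWAT C6KO 3 it was called lower (-0.69 ± 0.12, adjusted p = 0.0111). It was 0.06 ± 0.16 in eWAT and -0.14 ± 0.22 in BAT, where WT and C6KO overlapped. Over the 18 libraries, after subtraction of depot means, Hmox1 and Srxn1 had a Pearson r of 0.71, a description over libraries that share genotype and cell makeup.

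Of the glutathione genes, Gclc (the catalytic subunit of glutamate-cysteine ligase, the first step of glutathione synthesis) had C6KO libraries in iWAT at 48.3, 46.8 and 31.5 CPM against 35.3, 30.0 and 28.8 CPM in WT. The estimate was 1.35-fold (log2 0.44 ± 0.18, adjusted p = 0.279) and iWAT C6KO 3 alone lay within the WT range. Without that library Gclc was called higher (1.505-fold, adjusted p = 0.0308), on the edge of the fold minimum. Its partner Gclm, the modifier subunit, did not move with it there (log2 fold change -0.19). In BAT, Gclm was 1.56-fold higher without overlap (50.1, 35.3 and 55.3 CPM in WT, 81.4, 75.8 and 59.5 CPM in C6KO) but did not pass the test (adjusted p = 0.184), while Gclc was at -0.06 ± 0.16.

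Gsr, the reductase that regenerates glutathione with NADPH, differed most clearly in eWAT. It was at 46.9, 42.0 and 45.8 CPM in WT and 70.4, 62.2 and 66.1 CPM in C6KO, with every C6KO library above every WT library. The 1.48-fold increase passed the test (log2 0.57 ± 0.10, adjusted p = 0.0461) but lay just under the fold minimum, and it was called without eWAT C6KO 2 (1.54-fold, adjusted p = 0.0278). In iWAT C6KO was at 92.7, 82.6 and 62.7 CPM and WT at 56.8, 70.5 and 62.2 CPM (0.33 ± 0.16, adjusted p = 0.342), and in BAT the estimate was -0.16 ± 0.16 (adjusted p = 0.726). The difference of the C6KO effect between BAT and eWAT was -0.74 ± 0.21 (unadjusted p = 0.00267, adjusted p = 0.140).

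Txnrd1, the cytosolic thioredoxin reductase, gave no call, with log2 fold changes of 0.15 ± 0.12, 0.09 ± 0.11 and -0.02 ± 0.19 in iWAT, eWAT and BAT, and values between 87.2 and 158 CPM in all 18 libraries. Nqo1 rested on few reads. It was at 5.71 to 7.59 CPM in WT iWAT and 4.42 to 8.75 CPM in C6KO, with an estimate of 0.03 ± 0.29. In eWAT WT was at 4.44, 4.33 and 5.17 CPM and C6KO at 5.59, 5.69 and 6.04 CPM, apart without overlap but not past the test (1.25-fold, adjusted p = 0.464). In BAT WT it was at 3.80, 19.7 and 6.06 CPM and in C6KO at 3.96, 2.97 and 5.36 CPM (log2 fold change -1.30 ± 0.63, adjusted p = 0.437). The high value was in BAT WT 2, the library with muscle transcripts, and without it the estimate was -0.25.

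Sod2 gave no call, with log2 fold changes of -0.10 ± 0.12 (iWAT), 0.11 ± 0.21 (eWAT) and 0.08 ± 0.21 (BAT). In BAT its C6KO libraries were at 1027, 1016 and 998 CPM and lay within the wider range of WT (1221, 705 and 987 CPM).

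Sod3 was the gene called in eWAT. It was at 550, 478 and 577 CPM in WT and 979, 894 and 808 CPM in C6KO, so that all 3 C6KO libraries were above all 3 WT libraries. The fold change was 1.68 (log2 0.75 ± 0.13 SE, edgeR adjusted p = 0.0432, DESeq2 adjusted p = 1.29e-06). The direction and size were kept in all 6 fits without 1 library (1.60- to 1.75-fold), but the call was made in 1 of them, without eWAT C6KO 2, and lost in the other 5, where adjusted p-values ran from 0.0537 to 0.190. Adipocyte markers were also higher in C6KO eWAT without overlap (9053 to 10898 CPM in WT, 12512 to 16354 CPM in C6KO), with 6 of 6 not overlapping and 2 of 6 called, Plin1 at 1.54-fold and Lipe at 1.64-fold. Endothelial markers were higher too (450 to 506 CPM in WT, 627 to 774 CPM in C6KO), with 0 of 5 called. So were the low brown adipocyte (9.19 to 10.7 CPM in WT, 11.1 to 15.9 in C6KO) and hepatocyte markers (6.74 to 12.2 CPM in WT, 22.8 to 67.5 in C6KO). Other sums were lower in C6KO without overlap, beside the macrophage markers given above. Progenitor and fibroblast markers were at 5961 to 7748 CPM in WT and 4862 to 5806 in C6KO (0 of 6 called). Mast cell markers were at 214 to 318 CPM in WT and 104 to 152 in C6KO (2 of 5 called). Their part in the Sod3 result was not tested.

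In iWAT the C6KO libraries had Sod3 at 2159, 1410 and 1384 CPM, against 1307, 1308 and 1268 CPM in WT. There was no overlap, but the test was not passed (1.28-fold, log2 0.36 ± 0.20, adjusted p = 0.403), and without iWAT C6KO 1, the highest library, the log2 fold change was 0.11. In BAT the groups overlapped (421 to 538 CPM in C6KO, 466 to 557 CPM in WT) and the log2 fold change was -0.06 ± 0.17. The effect in BAT differed from that in eWAT by -0.82 ± 0.23 on the log2 scale, which DESeq2 called (adjusted p = 0.0305) and edgeR did not (unadjusted p = 0.00291, adjusted p = 0.145). Gsr and Sod3 had the highest correlation of any pair of the 10 genes, with a Pearson r of 0.80 over the 18 libraries after subtraction of depot means.

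Gpx3 had the largest estimates of the 10 genes in iWAT and, among increases, in BAT. In BAT it was at 2469, 1651 and 2526 CPM in WT and 4246, 4396 and 4507 CPM in C6KO, with no overlap and a narrow C6KO range. The log2 fold change of 1.001 ± 0.20 had an edgeR adjusted p of 0.0516 and a DESeq2 adjusted p of 1.56e-05. Without BAT WT 2 it was called at 1.80-fold (log2 0.85 ± 0.16, adjusted p = 0.0323). Marker sums also differed without overlap in BAT. Endothelial markers were higher in C6KO (1115 to 1142 CPM, against 789 to 1050 in WT). Progenitor and fibroblast (630 to 789 CPM, against 1096 to 1695) and mast cell markers (27.1 to 35.9 CPM, against 36.8 to 65.1) were lower, as were macrophage markers. Their part in the BAT result was not tested. In iWAT Gpx3 was at 223, 180 and 287 CPM in WT and 683, 1051 and 262 CPM in C6KO (2.91-fold, log2 1.54 ± 0.48, adjusted p = 0.214). There, 2 C6KO libraries were far above WT and iWAT C6KO 3 lay inside the WT range, while the adipocyte marker sums given above were higher in all 3 C6KO libraries. The part of these markers in the Gpx3 result was not tested. Without iWAT C6KO 3, Gpx3 was called at 3.74-fold (log2 1.90 ± 0.24, adjusted p = 0.00252), in a fit whose share of all genes called was not computed.

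In eWAT the Gpx3 groups overlapped, at 431, 383 and 416 CPM in WT and 515, 395 and 408 CPM in C6KO (log2 fold change 0.11 ± 0.13, adjusted p = 0.745). The effect in eWAT was lower than that in iWAT by 1.43 ± 0.47 on the log2 scale, with an unadjusted p of 0.00778 and an adjusted p of 0.890, and without iWAT C6KO 3 this difference was called (-1.81 ± 0.31, adjusted p = 0.00343).

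**Figure D4:**
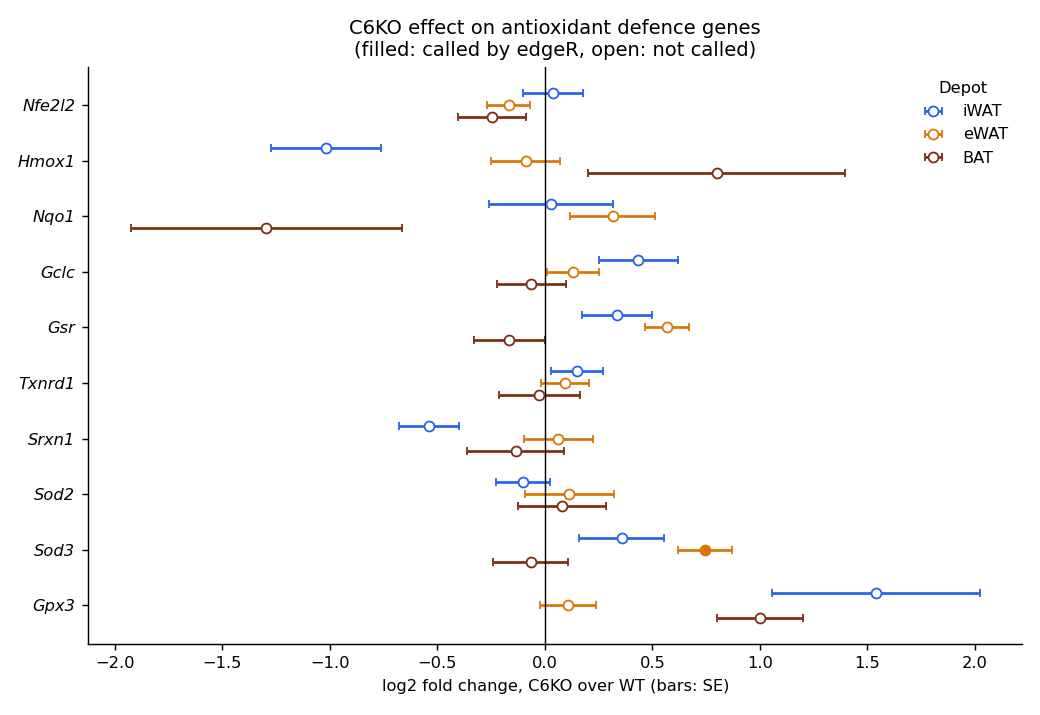
Log2 fold changes of C6KO over WT (horizontal, bars for the SE of edgeR's estimate) for the 10 genes in iWAT, eWAT and BAT, with a filled point where the gene was called. Sod3 in eWAT is the filled point, and Hmox1 and Srxn1 in iWAT lie to the left of 0 while Gpx3 in iWAT and BAT lies to the right.

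Tested directly, the C6KO effect on the 10 genes was not called different by edgeR between any 2 depots (0 of 10 in each of the 3 contrasts, judged at an adjusted p below 0.05 with no fold minimum). Between eWAT and iWAT edgeR called 0 of 15866 genes, which is 0% (0.0848% by DESeq2), and 1 of the 10 genes, Gpx3, was at an unadjusted p below 0.05, as were 5.48% of all genes. Between BAT and iWAT edgeR called 0.183% of all genes (1.32% by DESeq2), and 4 of the 10 genes, Hmox1, Nqo1, Gclc and Gsr, were at an unadjusted p below 0.05, beside 9.93% of all genes. Between BAT and eWAT edgeR called 0.536% of all genes (2.59% by DESeq2), and 3 of the 10 genes, Nqo1, Gsr and Sod3, were at an unadjusted p below 0.05, beside 11.2% of all genes. The Nqo1 differences turned on BAT WT 2. They were -1.31 ± 0.61 (BAT and iWAT) and -1.60 ± 0.61 (BAT and eWAT) on the log2 scale with all libraries, and -0.30 ± 0.43 and -0.60 ± 0.43 without it, at unadjusted p-values of 0.487 and 0.182. These contrasts share libraries and are not independent of each other.

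**Figure D5:**
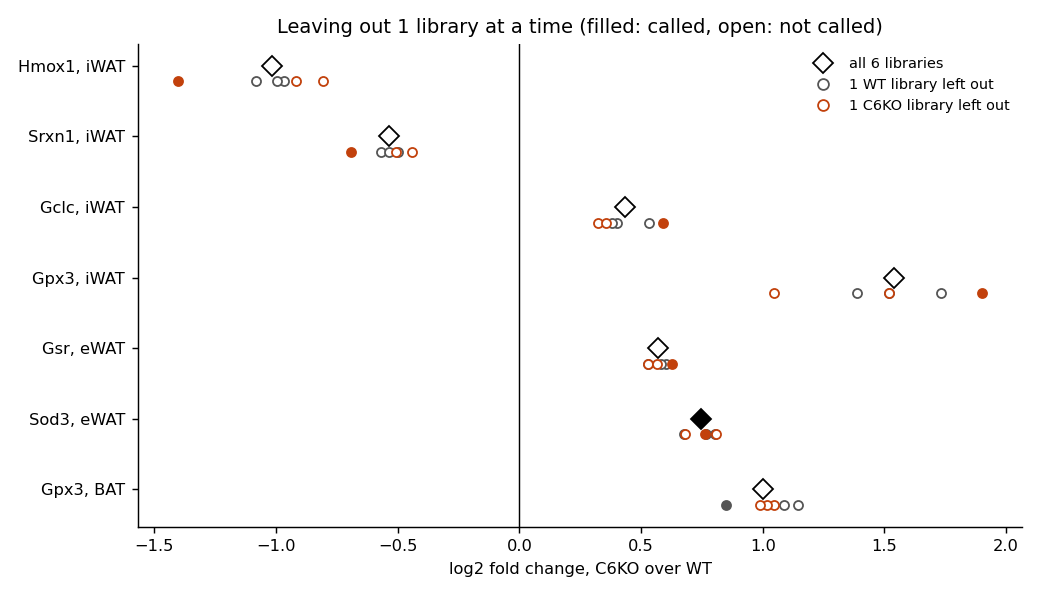
Log2 fold changes of C6KO over WT for the 7 results nearest to or past the thresholds, with all 6 libraries (diamonds) and with 1 library left out (circles, grey where a WT and orange where a C6KO library was left out), filled where called. The 4 filled circles in iWAT are those without C6KO 3, and in BAT the filled circle is that without WT 2. The share of all genes called in the fits without 1 library was not computed.

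Other genes of the pathway were read from 4 lists of 91 genes in all, described by counts and medians. All were tested except in the glutathione and conjugation list, where 31 of 34 were tested in iWAT and BAT and 32 in eWAT. In eWAT 3 of them were called, all higher in C6KO, where 0.746% of all genes were called. With total counts as the only scaling, 0 of them were called. Mafk, a small MAF partner of NRF2, was at 36.3, 29.8 and 38.5 CPM in WT and 72.2, 51.7 and 61.7 CPM in C6KO (1.78-fold, adjusted p = 0.0461). Mgst3, a microsomal glutathione transferase and peroxidase, rose 1.84-fold (adjusted p = 0.0432), and Sesn2, a stress-induced sestrin, rose 1.72-fold (adjusted p = 0.0468). Each had no overlap between genotypes. Leaving out 1 library kept their direction, with Mafk and Sesn2 called in 1 of 6 fits (without eWAT C6KO 2) and Mgst3 in 2 of 6 (without eWAT C6KO 1 or C6KO 2), and adjusted p-values of up to 0.190.

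In BAT 1 of the 91 genes was called, a share like the 1.24% of all genes. It was Gsta3, an alpha-class glutathione transferase whose counts may include reads shared with its close paralogs. It was at 8.47, 7.85 and 7.49 CPM in WT and 1.79, 2.52 and 3.22 CPM in C6KO, a 3.12-fold lower level (adjusted p = 0.0430), called in 0 of 6 fits without 1 library (adjusted p 0.0686 to 0.195). In iWAT 0 of the 91 were called by edgeR and 2 by DESeq2, beside 0.0275% and 4.57% of all genes.

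By list, the median log2 fold change of glutathione and conjugation genes was 0.27 in iWAT and 0.26 in eWAT, with estimates above 0 for 25 of 31 and 24 of 32 genes tested, and 0.07 in BAT. The genes of NRF2 control had medians of 0.04, 0.03 and 0.04 in iWAT, eWAT and BAT. The thioredoxin, peroxiredoxin and related genes had medians of -0.02, 0.14 and 0.01. The NADPH, iron, haem and quinone genes had medians of -0.01, 0.05 and 0.04. All these stand beside medians over all genes of 0.03, -0.01 and -0.03.

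The sister enzymes of the 10 genes gave no call. Sod1, the cytosolic superoxide dismutase, had log2 fold changes of 0.41, 0.20 and 0.31 in iWAT, eWAT and BAT, and Cat, catalase, 0.28, 0.40 and 0.13. Gpx1, the cytosolic glutathione peroxidase, had 0.29, 0.07 and 0.02, and Txn1, the thioredoxin that TXNRD1 reduces, -0.25, -0.14 and -0.08.

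The genes whose depot-centred log2 CPM ran closest to each of the 10 over the 18 libraries were ranked by Pearson r among 13132 genes. Hmox1 was closest to Bbc3, Gnpda1 and Acly (r = 0.88 to 0.90), and Acly was also among the 3 closest to Srxn1 (0.87, with Gk at 0.87 and Atp6v1a at 0.86). Sod3 was closest to Anxa6, Cobll1 and Klhl5 (0.91 to 0.93), Sod2 to Sucla2, Cdo1 and Apmap (0.92 to 0.94) and Gpx3 to Dnajc7, Parp6 and Angel2 (0.91 to 0.93). Gsr was closest to Stk40, Rflnb and Spg7 (0.89 to 0.90), Gclc to Bcl6, Thoc1 and Serinc4 (0.86 to 0.88), Txnrd1 to Nr1d1, St13 and Bicd2 (0.84 to 0.87) and Nfe2l2 to Tra2a, Gmps and Cdk14 (0.84 to 0.86). Nqo1 was closest to E030003E18Rik, Aldh1a1 and Pdlim7 (0.92 to 0.93), with BAT WT 2 far from the rest. None of these neighbours belongs to the 10, and the highest of so many correlations over 18 libraries is large by selection.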

How the data were processed

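The authors aligned reads to mm10 with STAR and counted them on exons with HOMER, condensing each gene to 1 transcript, and deposited 1 table per depot of whole-number counts without normalization. The strandedness, annotation and tool versions are not given in the sources used here. The tables also hold a transcript length in bases, used for CPM per kb. For 2619 of 25124 genes the kept transcript differed between tables, but for none of the 10 genes described, whose exons overlapped no other gene's exons in GENCODE M21.

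Counts were tested with edgeR 4.0.16 (limma 3.58.1, R 4.3.3): filterByExpr, TMM, robust quasi-likelihood F tests, Benjamini-Hochberg adjustment over all genes tested. C6KO was compared with WT within each depot, depots were compared in 1 fit of 9 WT libraries, and differences of the C6KO effect in 1 fit of 18. CPM used TMM factors over 18 libraries. DESeq2 1.42.0, other scalings and filters, a replicate block and leaving out each library were the alternatives. Where 1 library was left out, the group with 2 libraries shares its spread estimate with the rest of the fit. The steps were tested on simulated data. Figures used matplotlib 3.10.9 in Python 3.11.15.

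The genes and lists were chosen with earlier results of these data known. Named genes were the 10, Casp6, called list genes (at most 4 per list and depot), 6 partner or sister genes (Keap1, Gclm, Txn1, Cat, Sod1 and Gpx1) whatever their values, the 3 closest correlates of each gene and cell type markers. Groups and replicate numbers came from the sample labels, which call the replicates biological but do not name the animals. Same-numbered libraries did not deviate together in every pair, with correlations from -0.599 to 0.166 between WT and C6KO of a depot and from -0.0892 to 0.255 between WT depots (all 3 positive but not all over 0.1 for iWAT with eWAT and for iWAT with BAT), so the numbers were not taken to pair samples. Depots may come from the same animals, and comparisons between depots treat the libraries as independent. No protein sequences were used here.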

Additional observations from a re-analysis of the deposited data

Results flagged for a closer look

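The C6KO effect on Gsta3, an alpha-class glutathione transferase gene, was called different between BAT and eWAT, a contrast in which edgeR called 0.536% of all genes. Its counts may include reads shared with close paralogs. The log2 difference of the effects was -2.04 (SE 0.41, edgeR adjusted p = 0.0309 in the fit of 18 libraries), with C6KO at 0.320 of WT in BAT and at 1.31 times WT in eWAT. In eWAT the WT libraries were at 19.4, 21.98 and 18.1 CPM and the C6KO libraries at 15.2, 39.8 and 23.0 CPM, and in BAT all 3 C6KO libraries were below all 3 WT libraries. The BAT values rested on few counts, 58, 84 and 68 in WT and 14, 28 and 30 in C6KO. The difference was called in 5 of the 12 fits that left out 1 library of either depot, with values from -2.31 to -1.59 and adjusted p-values from 0.00637 to 0.0978.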

How the results depend on the processing

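With 3 libraries per group and deposited counts only, single calls near the thresholds depended on the tool, the filter and single libraries, while the depot differences of Gpx3, Sod2 in BAT and Sod3 in iWAT did not. The causes of the changes below were not tested. In C6KO against WT, the count of antioxidant defence genes called in iWAT went from 0 to 1 with DESeq2 (Hmox1) and to 1 with all 18 libraries in one fit (Gpx3). In eWAT it went from 1 to 2 with no fold change minimum (Gsr added) and to 0 with all 18 libraries in one fit. In BAT it went from 0 to 1 (Gpx3) with DESeq2, with no filter on low counts and with at least 10 counts in every library. Leaving out 1 library gave 0 to 4 genes in iWAT, 0 to 2 in eWAT, 0 to 1 in BAT and 0 to 1 for the difference between eWAT and iWAT. The share of all genes called in those fits was not computed, so these counts cannot be read against a background. For the difference between BAT and eWAT DESeq2 called 1 gene (Sod3). With no fold change minimum, 7 genes differed between WT eWAT and iWAT and 8 between WT BAT and iWAT. The share of all genes called without the minimum was not computed either, so these counts are not a result about the group.

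Of the other pathway genes, DESeq2 called 7 in eWAT and 2 in each of iWAT and BAT, and in eWAT total counts as the only scaling gave 0 and no filter on low counts gave 5. Replicate numbers were not taken to pair the samples, since the labels do not name the animals. With the replicate number as a block the counts were 6 in eWAT and 0 in BAT, while the counts of antioxidant defence genes called were 1 in eWAT and 0 in both iWAT and BAT, as without it.

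Estimates near 0 changed sign in 11 of the 30 combinations of gene and depot, none of them a called gene. In iWAT, Nfe2l2 was -0.0269 and Nqo1 -0.0492 with total counts only, and Nqo1 was -0.0123 with the replicate block. In BAT, Txnrd1 was 0.0048 with no filter on low counts. Leaving out 1 library gave log2 fold changes from -0.11 to 0.10 for Nfe2l2 and -0.23 to 0.23 for Nqo1 in iWAT. In eWAT the ranges were -0.21 to 0.10 for Hmox1, -0.11 to 0.22 for Srxn1, -0.0886 to 0.33 for Sod2 and -0.0161 to 0.19 for Gpx3. In BAT they were -0.16 to 0.041 for Gclc, -0.19 to 0.13 for Txnrd1, -0.31 to 0.0669 for Srxn1, -0.0809 to 0.28 for Sod2 and -0.14 to 0.0539 for Sod3.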
